A study of Mus musculus with 4 samples.

Results

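Antigen presentation and the interferon response were followed through 57 mouse genes in 4 RNA libraries of sorted neural stem cells. The genes were chosen by symbol, from a list that uses no measured level but was drawn up with earlier results of these data known. All 57 had transcripts among the 32564 genes of the deposited abundance files. They comprise 11 genes of the MHC class I pathway, 6 of the MHC class II pathway, 14 receptors, kinases and transcription factors of interferon signalling, 21 interferon-stimulated effectors and 5 interferon-inducible GTPases. Per the labels, the cells were activated neural stem cells carrying Prom1, EGFR and GFAP, sorted from untreated gfap:GFP mice 3 months old on a mixed CD1 and C57BL/6 background. The reporter mice carry GFP driven by gfap, so the sort selects by activity of that promoter and by surface markers. The design text of the series instead speaks of quiescent cells taken 3 days after aCSF or antagomers against miR204 were given into the ventricle. No label names either treatment, so the 4 libraries were treated as 1 group. If the design text applied, the spread given below could also hold a treatment difference. Whether the 4 libraries stem from different animals is not labelled. Each SD and p-value therefore describes the spread among these samples only, which may be technical.

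MHC class I molecules, a heavy chain paired with beta-2 microglobulin, present peptides made in the cytosol and are found on most nucleated cells. MHC class II molecules present peptides taken up from outside the cell, and in the brain they are known mainly from microglia, border macrophages and dendritic cells. Type I interferons signal through Ifnar1 and Ifnar2 and interferon gamma through Ifngr1 and Ifngr2. Janus kinases bound to these receptors activate factors that enter the nucleus and switch on effector genes through short promoter elements. Interferon gamma also induces the class II transactivator Ciita, on which transcription of the class II genes depends.

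The promoters were searched for such elements, and the stretches below are shown because they hold matches in genes that the results turn on. Promoter windows of 300 bases, from 250 before to 50 after the start site, were taken from RefSeq (GRCm38.p6). They were found for 47 of the 57 genes, as 55 windows. Of the class II genes, H2-Aa, H2-Eb1 and H2-DMa had a window, and Ciita, Cd74 and H2-Ab1 had none. The core of the interferon-stimulated response element, GAAA, any 2 bases and again GAAA, was searched on both strands and occurred in 20 of the 55 windows (36.4%) and in 3.44% of all 32851 promoter windows of the table. It was present in 11 of 20 windows of effectors, 4 of 5 of GTPases, 3 of 10 of class I genes, 2 of 16 of receptors, kinases and factors, and 0 of 4 of class II genes. ATTGG, the CCAAT core that forms the Y box of MHC promoters, occurred in 9 of 10 class I windows and 3 of 4 class II windows, and in 37.4% of all windows. TTCNNNGAA, the core of the gamma-activated site, occurred in 13 of the 55 windows (23.6%) and in 8.30% of all windows. Matches are letters in these windows and show neither binding nor use. In the stretches below capitals mark ATTGG in the H2 genes and the response element core in the 4 effector genes, on either strand, and other matches are left in lower case. Each runs 5′ to 3′ on the gene's strand, ending at or before the start site.

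H2-Aa: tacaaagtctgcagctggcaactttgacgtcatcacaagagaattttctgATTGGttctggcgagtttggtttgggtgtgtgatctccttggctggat
H2-Eb1: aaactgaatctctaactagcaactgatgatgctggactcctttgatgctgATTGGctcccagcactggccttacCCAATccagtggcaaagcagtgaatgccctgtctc
Isg15: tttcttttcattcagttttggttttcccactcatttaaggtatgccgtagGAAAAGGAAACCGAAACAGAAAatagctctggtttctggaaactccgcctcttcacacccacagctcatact
Ifit1: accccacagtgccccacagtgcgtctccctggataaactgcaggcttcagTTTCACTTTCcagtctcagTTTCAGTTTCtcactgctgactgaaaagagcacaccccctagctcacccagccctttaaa
Rsad2: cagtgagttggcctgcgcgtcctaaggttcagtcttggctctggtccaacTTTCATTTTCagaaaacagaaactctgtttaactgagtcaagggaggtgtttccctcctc
Oas1a: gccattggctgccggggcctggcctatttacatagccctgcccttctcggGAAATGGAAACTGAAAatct

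These stretches lie at chr17:34287824-34287921 on the minus strand for H2-Aa, chr17:34305758-34305866 on the plus strand for H2-Eb1, chr4:156200825-156200946 on the minus strand for Isg15, chr19:34640735-34640863 on the plus strand for Ifit1, chr12:26456513-26456622 on the minus strand for Rsad2 and chr5:120907526-120907595 on the minus strand for Oas1a. The ATTGG of H2-Aa began 48 bases before the start site, and the pair of H2-Eb1 spanned 59 to 31 bases before it. Isg15 held 3 overlapping matches to the response element core between 78 and 57 bases before its start, Ifit1 held 2 between 104 and 76 bases, Oas1a held 2 between 20 and 5 bases, and Rsad2 held 1 between 120 and 111 bases.

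The libraries held 16978938 to 23727664 estimated counts, and each pair of libraries differed by more than the counting noise of reads. All 12 genes of a neural stem core list were above 1 TPM (a measure of transcript abundance per unit of length, relative to the whole library), led by Slc1a3 at 820 to 1164 TPM and Sox9 at 264 to 423 TPM. All 14 microglial genes were above 1 TPM as well, with a summed level of 227, 474, 649 and 618 TPM in libraries 1 to 4, and all 8 ependymal genes, with 601, 1211, 795 and 997 TPM. Oligodendrocyte markers summed to 2515, 3661, 3316 and 4343 TPM, a mean of 3459 TPM that exceeded the 2814 TPM of the stem core list, and mature neuron markers to 1284, 1047, 1039 and 1092 TPM. Globin and other erythroid transcripts summed to 59.9, 641, 449 and 2342 TPM. In bulk RNA, fewer cells of a type and less RNA per cell cannot be told apart.

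Transcripts of most of the 57 genes were detected in these libraries, which also hold transcripts of other cell types. The mean level exceeded 1 TPM for 39 genes and lay under it for 5, while 13 passed in neither direction. The test was limma's on log2(TPM + 1), with an adjusted p under 0.05 in 4 libraries. Over all 19914 genes tested, 62.8% were above and 23.2% below 1 TPM by the same rule. With a test built on edgeR's quasi-likelihood fit 42 were above and 1, Ciita, below. By that test Nlrc5, H2-Eb1, Ifih1 and Iigp1 lost their calls while H2-Q7, Oasl2 and Rsad2 gained one. With the most abundant transcript alone Irf9 and Trim25 lost theirs. The median level of the 57 genes, 7.92 TPM, was close to the 8.34 TPM of all tested genes. The sets differed in median level: receptors, kinases and factors stood at 24.1 TPM, class I genes at 8.07, GTPases at 5.38, effectors at 4.92 and class II genes at 1.99 TPM.

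Class I transcripts were led by the light chain and the classical heavy chains. B2m, which encodes beta-2 microglobulin (chr2:122147686-122153083), stood at 94.4, 107, 84.2 and 124 TPM in libraries 1 to 4 (102 ± 17.0, SD). H2-D1 (chr17:35262730-35267499) stood at 97.0, 126, 155 and 168 TPM, and H2-K1 (chr17:33996017-34000347) at 50.8, 59.3, 76.8 and 63.7 TPM. Library 1 was lowest for both heavy chains, and B2m was lowest in library 3. Within every library H2-D1 exceeded H2-K1, on average 2.14-fold, and reads shared by these similar genes are divided by estimate.

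The nonclassical class I genes were much lower. H2-Q7, a Qa-2 antigen gene, stood at 0.71, 3.23, 1.83 and 4.13 TPM and passed in neither direction (adjusted p = 0.085, limma), and H2-K1 exceeded it 19.7-fold. H2-T23, which encodes the Qa-1 antigen read by inhibitory receptors of natural killer cells, stood at 2.70, 2.42, 2.84 and 5.70 TPM. Its first 3 libraries lay close together and library 4 stood apart. H2-M3, which presents formylated peptides, had no count in library 1 and 0.808, 0.643 and 1.95 TPM in the others, passing in neither direction.

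The peptide-loading machinery was present in full. Tapbp, which encodes tapasin and bridges the transporter and the heavy chain, was the highest at 64.5, 73.9, 102 and 42.2 TPM. The transporter subunit Tap1 stood at 3.05, 7.72, 12.9 and 7.99 TPM, and Tapbp exceeded it 8.37-fold, in 4 of 4 libraries. Its partner Tap2 stood at 15.1, 18.9, 20.2 and 21.5 TPM, which is 2.42-fold above Tap1, but 74.0% of that sum belonged to a retained-intron transcript. With protein-coding transcripts only, Tap2 stood at 5.02, 5.07, 4.54 and 4.23 TPM and Tap1 at 3.00, 6.27, 11.9 and 4.41 TPM. The mean log2 ratio of Tap2 to Tap1 then reversed to -0.24 (exact sign-flip p = 0.625), but the order was mixed, with Tap2 the higher in library 1. The trimming peptidase Erap1 stood at 12.01, 6.96, 7.70 and 5.62 TPM, and it was the single class I gene with its highest value in library 1. Nlrc5, the transactivator of class I genes, was below 1 TPM at 0.208, 0.624, 0.174 and 0.355 TPM (adjusted p = 0.0021, limma). In all, 8 of the 11 class I genes were above 1 TPM, 1 below and 2 in neither direction.

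**Figure D1:**
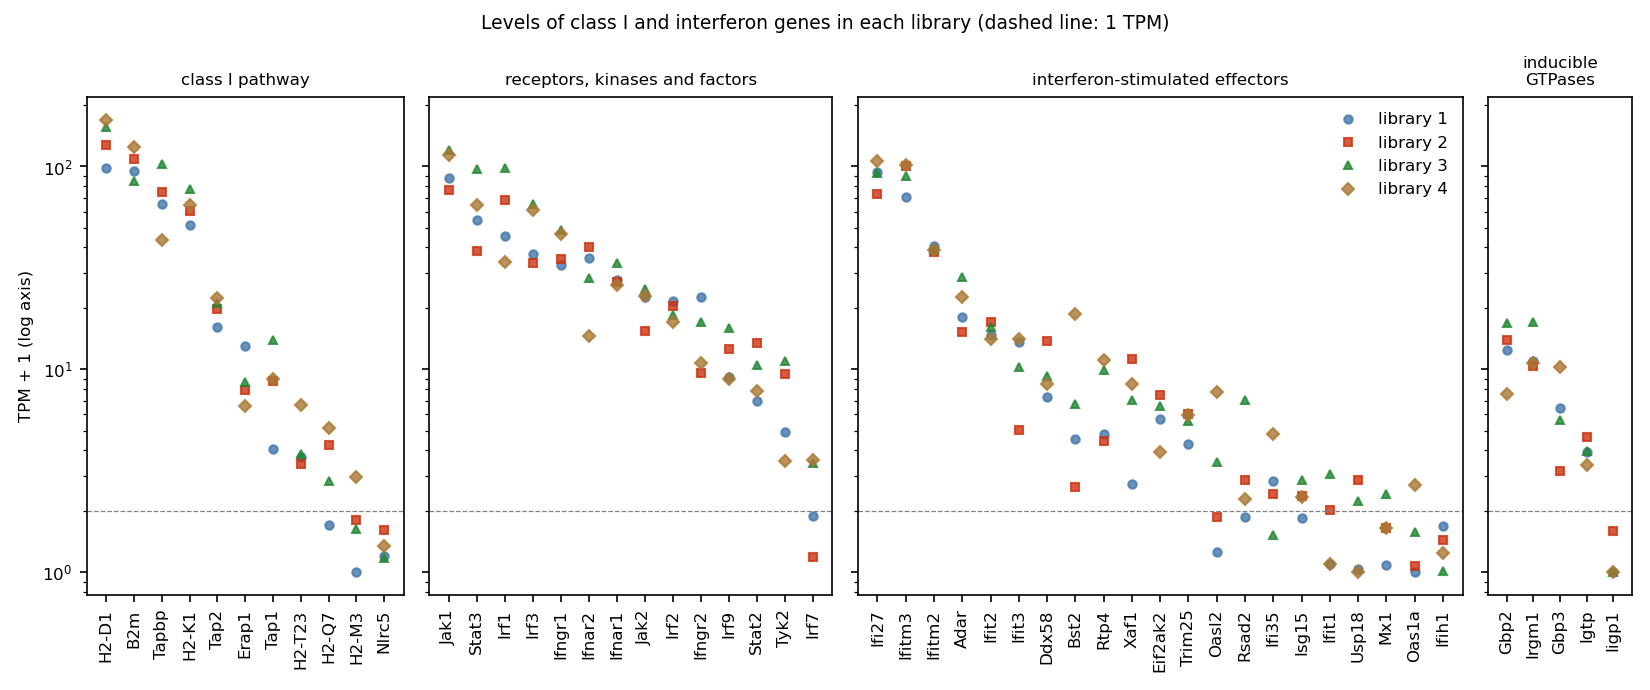
Level of each class I, signalling, effector and GTPase gene in each of the 4 libraries, as TPM + 1 on a log axis, ordered by mean within each set; each marker is 1 library and the dashed line is 1 TPM. H2-D1, B2m, Jak1, Ifi27 and Ifitm3 lie between 69.5 and 168 TPM in every library, while Bst2, Oasl2, Xaf1, Oas1a and Usp18 spread widely between libraries.

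Of the class II pathway, H2-DMa had similar levels in all libraries, Cd74, H2-Aa, H2-Ab1 and the very low Ciita were highest in library 2, and H2-Eb1 was highest in library 3. H2-DMa, a subunit of the H2-M complex that edits the peptides on class II molecules, stood at 7.38, 7.04, 5.25 and 7.53 TPM (6.80 ± 1.05, SD, n = 4). Cd74, the invariant chain that escorts class II molecules to the endosome, stood at 3.63, 31.2, 1.92 and 3.86 TPM. Library 2 held 9.94 times the mean of the other 3, the values of which lay within 1.92 and 3.86 TPM. Cd74 was above 1 TPM in the test (10.2 ± 14.1 TPM, adjusted p = 0.029, limma) and remained so without library 2, with a mean of 3.14 TPM (adjusted p = 0.025, limma on 3 libraries).

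The alpha chain gene H2-Aa (chr17:34282744-34287823) was listed at 0.575, 5.93, 0 and 0 TPM, and the beta chain gene H2-Ab1 (chr17:34257689-34269419) at 0, 8.18, 1.22 and 0 TPM. In library 2 these values rested on 78.0 and 125 estimated counts, and in the other libraries on 0 to 14 counts. With 3 counts as the limit for a zero, library 2 stood at least 15.8-fold above the mean of the other 3 for H2-Aa and at least 15.5-fold for H2-Ab1. Both means passed in neither direction (adjusted p = 0.80 and 0.89, limma), and without library 2 the mean of H2-Aa fell to 0.192 TPM and was called below 1 TPM. H2-Eb1 (chr17:34305867-34316674), the beta chain of the other class II molecule, followed another order with 0, 0.605, 0.803 and 0 TPM, and its call below 1 TPM was lost when library 1 or library 4 was left out. Ciita was below 1 TPM in every library at 0.0437, 0.176, 0.0199 and 0.0369 TPM, with its highest value in library 2, and the value of library 3 lay under the level of 3 counts.

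**Figure D2:**
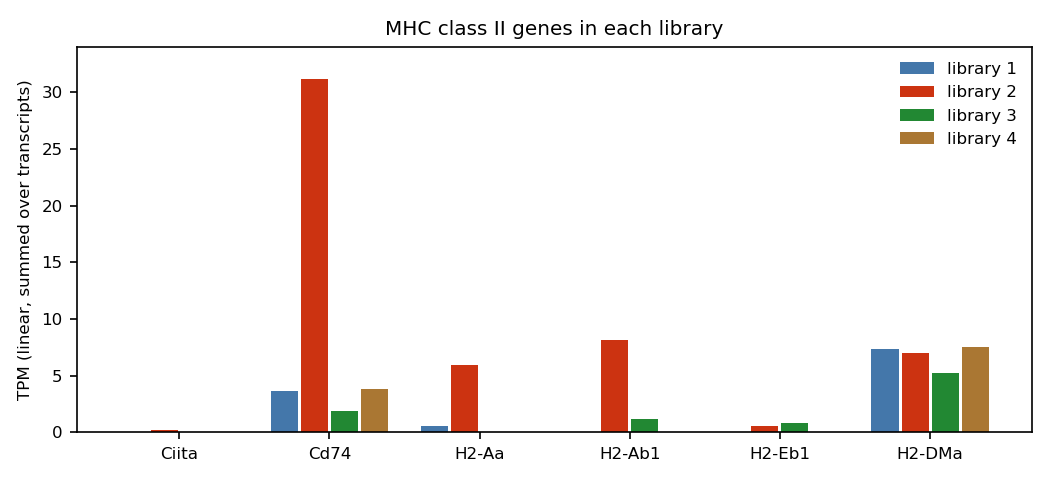
TPM of the 6 class II pathway genes, summed over transcripts, with 1 bar per library on a linear axis. Cd74 reaches 31.2 TPM, H2-Ab1 8.18 TPM and H2-Aa 5.93 TPM in library 2 and at most 3.86 TPM in any other library, while H2-DMa lies between 5.25 and 7.53 TPM in all 4.

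On the log2(TPM + 1) scale the median class II gene of library 2 lay 1.49 above the mean of the other 3 libraries, and its 6 genes all lay above it. The medians were -0.39, -0.25 and -0.58 in libraries 1, 3 and 4, where the mean of the others holds library 2. With library 2 left out they were 0.11, -0.18 and -0.16. Cd74, H2-Aa and H2-Ab1 were at least 2-fold higher in library 2, which makes 3 of the 6 class II genes. Of all 14087 genes with a mean of at least 1 TPM, 3.14% were that much higher in library 2. H2-Aa and H2-Ab1 reach that mean only through library 2, with 0.192 and 0.405 TPM without it, so their share is not read against this one. Cd74, which reaches it without library 2, was gene 9 of the 14087 by this difference. No test applies to 1 library against 3 of the same group. A pseudocount of 0.1 moved the median to 2.55.

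The summed markers of cells known for class II were not highest in library 2. The microglial list, in which Ctss stood at 25.8, 70.7, 65.8 and 71.4 TPM, had median differences of -1.37, 0.13, 0.71 and 0.57 (log2) in libraries 1 to 4. None of its 14 genes was at least 2-fold higher in library 2, and 2 had their highest value there. Border macrophage markers summed to 23.5, 18.4, 19.7 and 10.3 TPM over 6 genes, of which Lyve1 had no count in libraries 2, 3 and 4, and their leading genes Pf4 and F13a1 stood at 10.2 and 3.91 TPM in library 2. Dendritic cell markers summed to 7.99, 15.8, 20.9 and 26.7 TPM over 6 genes, mainly Siglech, which is shared with microglia, and Zbtb46, while Clec9a had no count in any library. Of 8 lymphocyte markers 4 had no count in any library, Cd3e, Cd3g and Nkg7 among them, and the sum of 7.47, 9.73, 11.3 and 10.6 TPM was mostly Cd4. Of 8 endothelial or mural genes, which summed to 41.4, 25.4, 43.7 and 36.3 TPM, Cdh5 had no count in any library.

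The ependymal list was highest in library 2, with 8 of 8 genes above the mean of the other libraries and a median difference of 0.56 (log2). Rarres2, its highest gene, stood at 194, 327, 223 and 281 TPM, and Tmem212 at 120, 262, 187 and 227 TPM. The oligodendrocyte list had a median difference of 0.73 in library 2, with 6 of 8 genes above the mean of the others, but was highest in library 4, with 0.86. The erythroid list had 0.59 in library 2 and 3.10 in library 4. The part of ependymal, oligodendrocyte or other cells in the class II values was not tested. The neural stem core list had a median difference of -0.24 in library 2, with 1 of its 12 genes higher there than in the mean of the others.

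**Figure D3:**
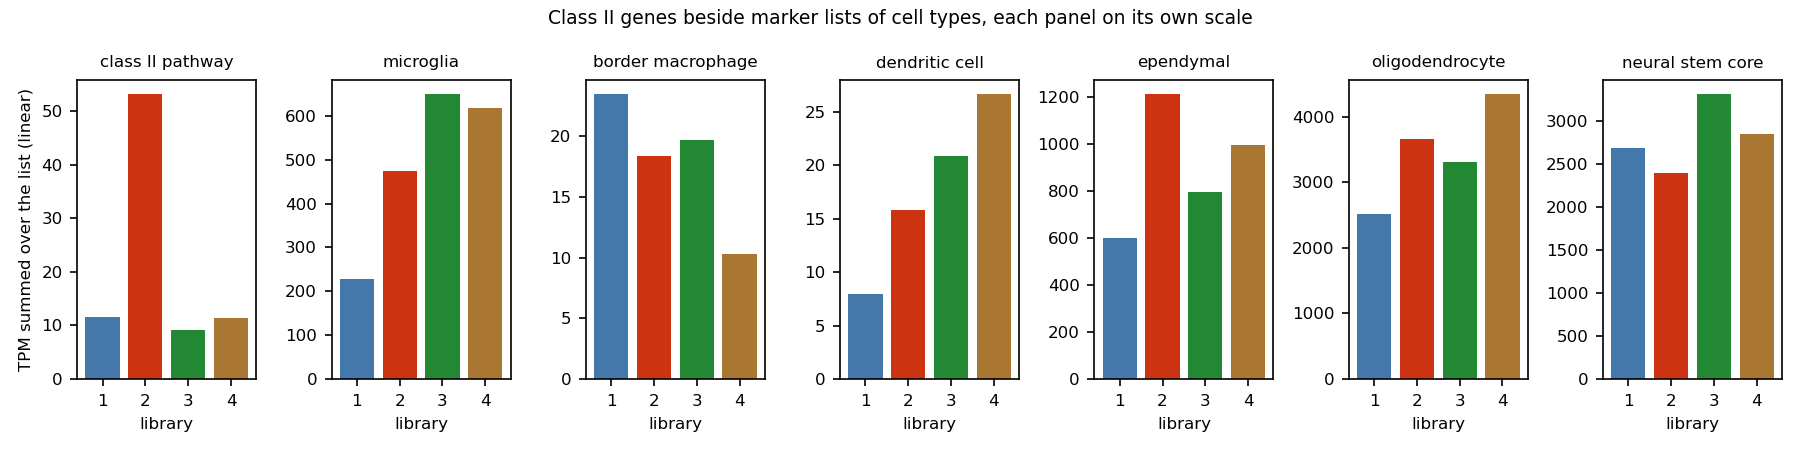
Summed TPM of the class II pathway genes and of 6 cell type marker lists in each library, on linear axes that start at 0 and differ between panels; each bar is 1 library. The class II sum is 53.1 TPM in library 2 and 9.21 to 11.6 TPM in the others, the ependymal sum is also highest in library 2, and the sums of the microglial, border macrophage, dendritic cell, oligodendrocyte and neural stem core lists are not.

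Transcripts of the receptors for both interferon families were present in every library. Ifnar1 stood at 26.6, 26.1, 32.5 and 25.2 TPM and Ifnar2 at 34.5, 39.0, 27.2 and 13.7 TPM. The type I receptor chains were near parity, with Ifnar1 the higher in 2 of 4 libraries (mean fold 1.03, exact sign-flip p = 1, adjusted p = 1). Ifnar2 was lowest in library 4, where it was more than 2-fold below the mean of the others, whereas Ifnar1 stayed within a narrow range. Ifngr1, the ligand-binding chain for interferon gamma, stood at 31.8, 33.8, 47.9 and 45.4 TPM, and the signalling chain Ifngr2 at 21.7, 8.58, 16.2 and 9.78 TPM. Ifngr1 exceeded Ifngr2 in 4 of 4 libraries, on average 2.83-fold. For Ifngr2, 50.9% of the TPM belonged to a transcript annotated for nonsense-mediated decay.

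Among the kinases that serve these receptors Jak1 was the most abundant, at 87.1, 75.6, 119 and 113 TPM. It exceeded Jak2, used by the interferon gamma receptor, 4.63-fold (21.8, 14.5, 23.9 and 21.9 TPM). It exceeded Tyk2, used by the type I receptor, 15.0-fold (3.91, 8.49, 9.98 and 2.54 TPM), in 4 of 4 libraries for both. Tyk2 was higher in libraries 2 and 3 than in libraries 1 and 4, an order that Jak1 and Jak2 did not follow. With 4 libraries the exact sign-flip test cannot give less than p = 0.13, which is 0.15 after adjustment over 18 pairs of genes, so no pair could pass.

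The transcription factors spanned a wide range. Stat3, which also serves cytokines of the interleukin-6 family, stood at 53.8, 37.5, 95.9 and 63.8 TPM, and Stat2, which serves type I interferon, at 5.96, 12.4, 9.57 and 6.80 TPM. Stat3 exceeded Stat2 6.43-fold on average, but in library 2, where Stat3 was lowest and Stat2 highest, the log2 ratio was 1.52 and elsewhere at least 2.98. Irf9, which joins Stat2 in the factor complex that binds the interferon-stimulated response element, stood at 8.20, 11.6, 15.1 and 7.98 TPM.

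Irf1, itself an early interferon-induced factor, stood at 44.4, 67.4, 97.4 and 32.9 TPM, and its antagonist Irf2 at 20.6, 19.6, 17.5 and 16.2 TPM. Library 3 was highest and library 4 lowest for Irf1, while Irf2 varied little, and Irf1 was the higher of the pair in 4 of 4 libraries. Irf3, the factor held ready for viral sensing, stood at 36.0, 32.4, 64.7 and 60.1 TPM, of which 61.2% belonged to retained-intron transcripts. Irf7, its interferon-induced relative, stood at 0.886, 0.193, 2.46 and 2.59 TPM and was the single gene of the 14 that did not pass (adjusted p = 0.56, limma), and Irf3 exceeded it 20.5-fold. The other 13 genes of signalling were all above 1 TPM.

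Interferon-stimulated effectors ranged in mean level from 0.348 TPM for Ifih1 to 90.6 TPM for Ifi27, with a median of 4.92 TPM. Ifi27 stood at 93.2, 72.1, 92.0 and 105 TPM, Ifitm3 at 69.5, 99.8, 88.7 and 101 TPM and Ifitm2 at 39.8, 36.8, 38.4 and 37.6 TPM. The Ifitm proteins restrict the entry of enveloped viruses, and Ifitm2 was among the steadiest genes described here, at 38.2 ± 1.27 TPM (SD, n = 4). Ifitm3 exceeded Ifitm2 in 4 of 4 libraries, on average 2.29-fold. Adar, the RNA-editing enzyme that marks cellular double-stranded RNA as self, stood at 17.1, 14.3, 27.7 and 21.8 TPM. Of the 21 effectors 12 were above 1 TPM, 1 below and 8 in neither direction.

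The Ifit genes, whose products bind foreign RNA, did not behave as a block. Ifit2 stood at 13.8, 16.0, 15.1 and 13.2 TPM. Ifit3 stood at 12.6, 4.06, 9.23 and 13.1 TPM and Ifit1 at 0.103, 1.02, 2.05 and 0.10 TPM, so library 2 was lowest for Ifit3 and libraries 1 and 4 were lowest for Ifit1. The near-identical Ifit3b stood at 9.34, 8.46, 7.86 and 10.1 TPM, and the division of reads between it and Ifit3 is an estimate. Isg15, the ubiquitin-like modifier induced early by interferon, stood at 0.855, 1.39, 1.84 and 1.34 TPM and passed in neither direction (adjusted p = 0.27, limma). Its protease Usp18 was listed at 0.0397, 1.84, 1.25 and 0 TPM.

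Several effectors had 1 library well above the rest. Bst2, which encodes tetherin, stood at 3.53, 1.63, 5.79 and 17.8 TPM, and Oasl2, an oligoadenylate synthetase-like gene, at 0.256, 0.880, 2.50 and 6.76 TPM. Both were highest in library 4, where they were genes 41 and 59 of 14087 by difference from the other libraries. Without library 4 the mean of Bst2 fell from 7.18 to 3.65 TPM and that of Oasl2 from 2.60 to 1.21 TPM, and the call of Bst2 was lost without library 3 (adjusted p = 0.054, limma). Rsad2, which encodes the antiviral enzyme viperin, stood at 0.867, 1.84, 6.09 and 1.29 TPM and was highest in library 3. Without library 3 its mean fell from 2.52 to 1.33 TPM. Oas1a, which senses double-stranded RNA, was listed at 0, 0.0798, 0.581 and 1.70 TPM, again with library 4 the highest.

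Sensors and further effectors were mostly low. Ddx58, which encodes the RNA sensor RIG-I, stood at 6.29, 12.8, 8.31 and 7.45 TPM, but protein-coding transcripts made up 17.1% of it and with these alone the call above 1 TPM was lost. The related sensor gene Ifih1 was below 1 TPM at 0.691, 0.444, 0.0171 and 0.241 TPM. Xaf1, a proapoptotic interferon target, stood at 1.74, 10.3, 6.04 and 7.43 TPM, lowest in library 1. Eif2ak2, the kinase that stops translation on double-stranded RNA, stood at 4.68, 6.52, 5.57 and 2.92 TPM, and Trim25, the ligase that activates RIG-I, at 3.31, 5.04, 4.59 and 4.99 TPM. Rtp4, a negative regulator of interferon responses, stood at 3.79, 3.45, 8.93 and 10.1 TPM, highest in library 4 and lowest in library 2. Mx1, a dynamin-like GTPase against influenza viruses, stood at 0.0931, 0.662, 1.43 and 0.649 TPM, and Ifi35 at 1.81, 1.43, 0.531 and 3.83 TPM, and both passed in neither direction. For Mx1, 68.6% of the TPM belonged to a transcript annotated for nonsense-mediated decay, and protein-coding transcripts were counted in library 3 only.

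Of the interferon-inducible GTPases, which act in the defence against intracellular pathogens, 4 of 5 were above 1 TPM. Gbp2 stood at 11.5, 12.99, 15.9 and 6.56 TPM and Gbp3 at 5.48, 2.15, 4.65 and 9.25 TPM. Library 4 was lowest for Gbp2 and highest for Gbp3, so the order of the pair reversed there (log2 ratio of Gbp3 to Gbp2 0.44, against -2.15 to -0.95 in the other libraries). Irgm1 stood at 10.0, 9.39, 16.1 and 9.76 TPM, with library 3 apart from 3 values that lay close together. Igtp stood at 2.91, 3.65, 2.97 and 2.38 TPM, and since it overlaps Irgm2 in the annotation (chr11:58199556-58207591 and chr11:58199618-58222782) the division of reads between them is an estimate. Iigp1 was the single GTPase gene below 1 TPM, with 0.594 TPM in library 2 and no count in libraries 1, 3 and 4.

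Of the 57 genes 0, 5, 5 and 6 were at least 2-fold higher in libraries 1 to 4 than the mean of the other 3, and 6, 4, 3 and 4 were at least 2-fold lower. Of all 14087 genes with a mean of at least 1 TPM, 1.19, 3.14, 3.17 and 3.5% were that much higher and 6.1, 1.76, 1.4 and 5.36% that much lower. Only 47 of the 57 genes have such a mean, some of them through the library in which they are high, so the counts are a description. The lower counts include Cd74, H2-Aa and H2-Ab1, set against a mean that holds the high values of library 2. By Dixon's critical value for 4 samples, 1 library stood apart in TPM for 7 of the 57 genes (12.3%), for 17.2% of all 19914 genes tested and for 5.86% of the 14087. The SD of log2(TPM + 1) over the libraries had a median of 0.44 among the 57 genes and of 0.30 among all genes of at least 1 TPM.

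It was then asked whether class II and interferon genes were high together in any library. In library 2, where the class II median difference was 1.49 (log2), the median of the 21 effectors was 0.02 and lay between -0.11 and 0.19 under the alternatives tried. Only Usp18 and Xaf1 among them were at least 2-fold higher there, and Ifit3 and Bst2 were at least 2-fold lower. The class I median of library 2 was 0.10, and -0.14 when library 1 was left out, and that of receptors, kinases and factors was -0.18. The GTPase median was 0.26, fell to -0.01 over those of at least 1 TPM, and its 5 genes included Gbp3 at -1.19. The median of all 14087 genes was -0.04 in library 2.

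In the other libraries different genes stood out. Library 3 had 13 of 14 receptors, kinases and factors above the mean of the others, with a median of 0.39, and Tap1, Tyk2, Irf1, Ifit1 and Rsad2 at least 2-fold higher. In that library 9285 of all 14087 genes lay above the mean of the others. Their median was 0.14, and 0.05 after rescaling over nuclear protein-coding genes. The 13 of 14 and the 0.39 are to be read against that shift. The neural stem core list had a median of 0.36 in that library, and the microglial list 0.71. In library 4 Oas1a, Oasl2, Bst2, Ifi35, H2-M3 and Gbp3 were at least 2-fold higher, while Ifnar2 and Tyk2 were at least 2-fold lower. H2-Aa and H2-Ab1 were at least 2-fold lower too, but against a mean that holds the high values of library 2. Neither had a count in library 4, nor did H2-Aa in library 3 or H2-Ab1 in library 1. Erythroid and oligodendrocyte transcripts were also highest in library 4, with medians of 3.10 and 0.86, and the microglial list had 0.57. Their part in these differences was not tested. In library 1 none of the 57 genes was at least 2-fold higher and 6 were at least 2-fold lower, among them Tap1, Xaf1 and Oasl2. Several marker lists were at their lowest there too: the microglial list with a median of -1.37 and 10 of 14 genes at least 2-fold lower, the oligodendrocyte list with -2.05 and 6 of 8, the erythroid list with -3.65 and 4 of 5, and the ependymal list with -0.77 and 2 of 8. The part of their RNA in that difference was not tested.

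**Figure D4:**
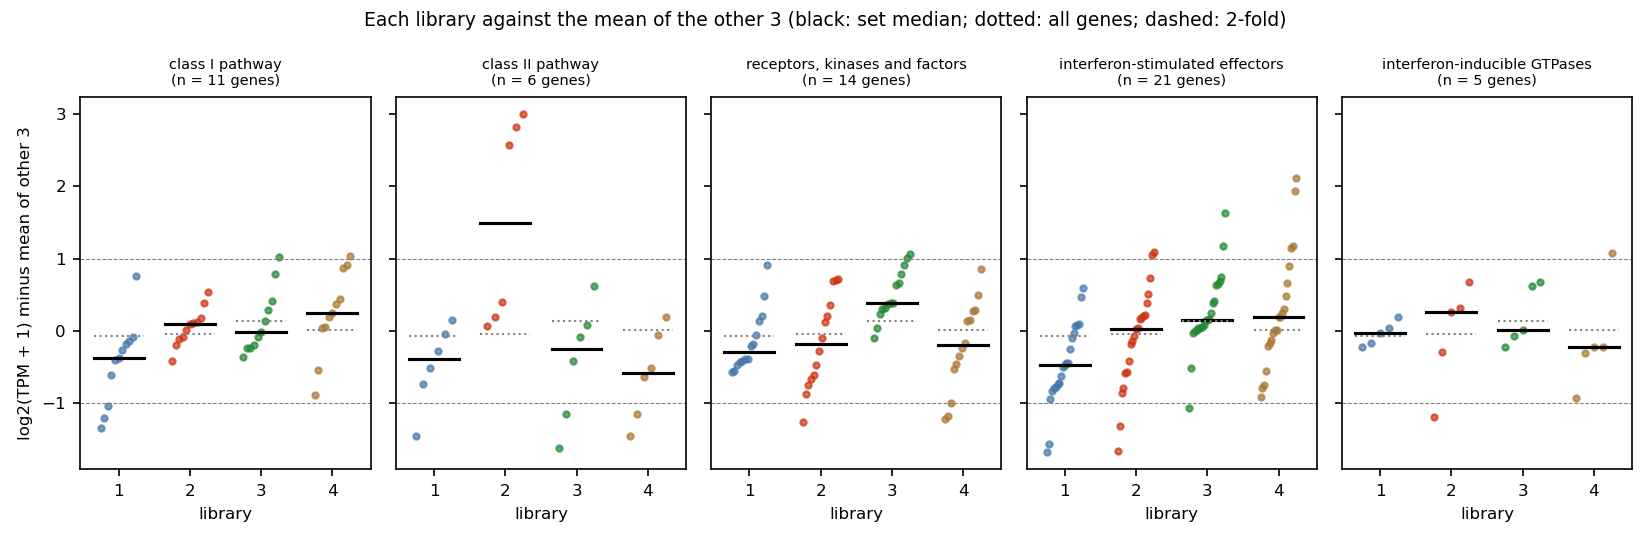
Difference of each gene in each library from the mean of the other 3 libraries, in log2(TPM + 1), for the 5 sets; each point is 1 gene, the black line is the median of the set, the dotted line the median of all 14087 genes of at least 1 TPM, and the dashed lines mark 2-fold. Class II genes of library 2 rise to 3.00 with a median of 1.49, while the effectors of the same library centre on 0.02 and range from -1.66 to 1.1.

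Summed TPM rested in part on transcripts that encode no full protein. Over the 47 genes the median share of protein-coding transcripts was 90.6%, and 6 of them (12.8%) had less than 50% of their TPM in such transcripts. These were H2-Q7, Tap2, Ifngr2, Irf3, Ddx58 and Oasl2. Over all 13487 protein-coding genes of at least 1 TPM the median was 95.9%, and 9.34% lay under 50%. For Oasl2 the protein-coding level was 0.223 and 0.507 TPM in libraries 1 and 2, near 0 in library 3 and 3.51 TPM in library 4, so library 4 was the highest on that measure.

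A further 60 genes of the same pathways, not among the 57, were examined beside them. Of these 28 were above 1 TPM, 14 below, 12 in neither direction and 6 had no count in any library. The highest were chaperones of class I assembly, Calr at 295 to 463 TPM, Pdia3 at 201 to 284 TPM and Canx at 191 to 240 TPM, followed by the proteasome activator Psme2 at 93.1 to 129 TPM. The signalling inhibitor Socs3 stood at 42.7, 115, 118 and 79.0 TPM and was lowest in library 1. The lowest with any count were Ifi44, Tlr9 and the interferon lambda receptor gene Ifnlr1, with means of 0.0383, 0.0515 and 0.0443 TPM.

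No transcript of an interferon examined was counted. Ifnb1, Ifng, Ifna2 and Ifna4 had no count in any library, which allows up to 0.178 to 0.686 TPM at 3 counts, for counting error only. H2-Eb2 and Tgtp1 had no count either. Of the other class II genes H2-DMb1 stood at 0.599, 3.36, 0.883 and 4.45 TPM and its neighbour H2-DMb2 at 2.91, 4.68, 4.74 and 5.24 TPM. The sum of H2-DMb1 was thus high in library 4 as well as library 2, but 74.9% of it belonged to a retained-intron transcript. With protein-coding transcripts only, H2-DMb1 stood at 0.0609, 0.930, 0.883 and 0.464 TPM, lower in library 4 than in libraries 2 and 3. H2-Oa had counts only in library 2, at 0.519 TPM. The subunits of the RFX factor, which binds MHC promoters, were above 1 TPM with means of 7.57 (Rfx5), 43.8 (Rfxap) and 19.3 TPM (Rfxank) and are named here after their values were seen.

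Among relatives of the effectors and GTPases, Oas2 had no count in libraries 1 and 2 and stood at 0.823 and 1.81 TPM in libraries 3 and 4, the same order of high and low libraries as Oas1a. Ifitm1 was listed at 0, 1.73, 0.459 and 2.15 TPM, far below Ifitm2 and Ifitm3. Mx2 was above 1 TPM at 1.02, 2.55, 3.99 and 3.94 TPM. Gbp7 stood at 16.5, 5.54, 11.8 and 14.4 TPM, lowest in library 2 like Gbp3, while Gbp4 was below 1 TPM in every library.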

How the data were processed

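RNA was measured in 4 libraries of 1 group. Per the labels' protocols, RNA from sorted cells was converted to cDNA with a low-input kit (SMART-Seq v4) and sequenced as paired reads (Illumina HiSeq). The tools named in the submitters' processing notes are kallisto and sleuth, and the build is mm10. Versions and index: not given in the sources used here. In the files as deposited, estimated counts are kallisto's division of reads among transcripts, and TPM values are these counts per effective length, scaled to a fixed total. Near-identical genes therefore share reads by estimate. The deposited files also give lengths and effective lengths, used as other values for length offsets and limits.

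TPM was summed per gene through GENCODE M21 (GRCm38): 98294 of 99567 transcripts matched, giving 32564 genes. One synonym (Mb21d1 for Cgas) was resolved through RefSeq. Levels were tested against 1 TPM with limma's trend fit on log2(TPM + 1), two-sided, Benjamini-Hochberg adjusted over 19914 genes with any count. Folds between genes are on the log2(TPM + 1) scale, and pairs were tested by exact two-sided sign flips over libraries. Each library was set beside the mean of the other 3 without a test. A count of 0 was given 3 counts as its limit. The labels name no molecular identifiers, so limits cover counting error only. Genes of other cell types were read from marker lists.

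The 57 genes and all lists were chosen with earlier results of these data known. Any of the 57 could be named. Of the 60 further genes, the 5 highest, the 3 lowest, those with no count and relatives of the 57 were named, and of some marker lists genes among the 2 highest or with no count; other marker genes are not reported here by name. Counts of libraries differed by a mean chi-square per gene of 47.8 to 66.4, so none was a copy of another's reads, which does not show that they are separate samples.

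The test was tried on simulated counts of 19914 genes, all given the same dispersion (spread beyond counting noise) of 0.1. There limma called 72% of 100 genes set at 2 TPM and 100% of those at 4 TPM as above 1 TPM. It called 99% of those at 0.25 TPM as below, and at 1 TPM it called 2% above and 4% below. Genes that spread more, such as the class II genes (median SD of log2(TPM + 1) 0.89), are not covered by these rates. Alternatives were a pseudocount of 0.1, a mean of at least 5 counts, rescaling over nuclear protein-coding genes, TMM and DESeq2 size factors, a test on edgeR's quasi-likelihood fit to rounded estimated counts, CPM, the most abundant or only protein-coding transcripts, set means, a restriction to genes of at least 1 TPM, and leaving out each library. The F statistic of the edgeR fit was built by hand with the level held at 1 TPM, because edgeR's own function takes no design of 1 column. Models ran in R 4.3.3 (limma 3.58.1, edgeR 4.0.16, DESeq2 1.42.0), the rest in Python 3.11.15 (pandas 2.3.3).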

Additional observations from a re-analysis of the deposited data

Results flagged for a closer look

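In 7 of the 57 genes 1 library lay apart from the other 3 by a gap that, as a share of the whole range, exceeds Dixon's critical value for 4 samples. This is 12.3% of them, against 17.2% of all 19914 genes with any count and 5.86% of the 14087 genes of at least 1 TPM, so the number of flagged genes does not set the 57 apart. For normal values chance flags about 5% of groups of 4, which is 1 in 20. In 5 of the 7 the library was library 2. These were Cd74 with a gap of 0.934 of the range, H2-Aa with 0.903, H2-Ab1 with 0.851, Ciita with 0.847 and Iigp1 with 1, the last because the other 3 libraries had no count. The summed TPM of the class II pathway stood apart in library 2 as well, at 0.945 of the range.

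Irgm1 stood apart in library 3 with a gap of 0.905 and H2-T23 in library 4 with 0.872. The summed TPM of the GTPases stood apart in library 3 with 0.834, which Irgm1 enters. On the log2(TPM + 1) scale 3 of the 7 genes, Ciita, Irgm1 and Iigp1, still exceeded the critical value. The values of Ciita and Iigp1 are below 1 TPM in all libraries. The sample behind library 2 has no label that differs from the others, and the cause was not tested.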

How the results depend on the processing

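The count of genes above 1 TPM was 37 to 42 and of those below 1 to 7 over all settings. With the test built on edgeR's quasi-likelihood fit 1 gene was below in place of 5, and leaving out 1 library gave 38 to 40 above and 4 to 6 below. Of the 57 genes 15 changed call under some setting: 8 lost a call, 7 gained one, and none reversed. The class II median of library 2 was 2.55 with a pseudocount of 0.1 and 2.70 over genes of at least 1 TPM, of which H2-Aa and H2-Ab1 reach that mean only through library 2, and 1.36 to 1.57 with another library left out. The GTPase medians rest on 5 genes: over those of at least 1 TPM they were -0.013 in library 2 and 0.32 in library 3, the mean in place of the median gave -0.047 in library 2, and with another library left out they ran from -0.28 to 0.061 in library 1, -0.055 to 0.35 in library 2 and 0.0024 to 0.32 in library 3. The cause was not tested. Of mean log2 ratios of pairs, Tap2 to Tap1 reversed to -0.24 with protein-coding transcripts only, by leaving out the retained-intron form. CPM without length correction, which favours long transcripts, gave 3.50 for H2-K1 to H2-Q7, 1.46 for Ifnar1 to Ifnar2, 1.63 for Jak1 to Jak2 and 2.29 for Ddx58 to Ifih1. The most abundant transcript alone gave 2.38 for Ifngr1 to Ifngr2, 1.58 for Jak1 to Jak2, 1.29 for Stat3 to Stat2, 3.53 for Irf3 to Irf7, 2.16 for Ddx58 to Ifih1 and 0.83 for Irgm1 to Igtp. Protein-coding transcripts alone gave 2.31, 1.62, 3.44 and 0.92 for Ifngr1 to Ifngr2, Jak1 to Jak2, Irf3 to Irf7 and Ddx58 to Ifih1. A pseudocount of 0.1 gave 5.28 for Irf3 to Irf7, 4.55 for Ddx58 to Ifih1, 3.62 for Cd74 to H2-Aa and 4.0 for Ifit3 to Ifit1. The remaining values, 212 for sets and 125 for pairs, moved by less than the spread between libraries. Differences between 1 and 2 TPM are near the limit of what 4 libraries resolve. No paired analysis was possible because the libraries form 1 group.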

Other observations

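Other genes were high in library 2 beside Cd74, H2-Aa and H2-Ab1, and those described here were picked after their values were seen. Ranked by difference from the other libraries, immunoglobulin and T cell receptor segments also stood high. Ighj2 was gene 2, Traj39 gene 6, Ighj3 gene 7, Ighj4 gene 14 and Traj18 gene 16. Pseudogenes were frequent among the first genes too, so the picked genes do not stand for the ranking. Which cells any of them came from was not tested. Spp1, which encodes osteopontin, a secreted phosphoprotein, stood at 2.28, 56.1, 0 and 3.50 TPM in libraries 1 to 4 and was gene 1 of 14087 by its difference from the other libraries. The purinergic receptor gene P2ry14 stood at 0.0173, 6.42, 0.0358 and 0 TPM. The cytokine gene Il1b stood at 1.39, 21.1, 5.14 and 6.86 TPM, as gene 31, and the bacterial lipoprotein receptor gene Tlr2 at 0.942, 4.92, 0.574 and 0.307 TPM, and P2ry14 and Tlr2 reach a mean of 1 TPM only through library 2. Lyz2, the lysozyme gene of myeloid cells, stood at 35.8, 96.1, 39.1 and 51.4 TPM, as gene 271. Il1b and Lyz2 thus had their highest value in library 2, whereas 12 of the 14 microglial genes had theirs in library 3 or 4. Each value rests on 1 library and has no replicate.

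Among the further pathway genes, Tlr7, a sensor of single-stranded RNA, was listed at 0, 1.60, 0.275 and 0.0189 TPM and was the single one of 60 that was at least 2-fold higher in library 2 on the log2(TPM + 1) scale, which understates low genes such as H2-Oa. Tmem173, which encodes the adaptor STING, stood at 0.210, 0.931, 1.55 and 6.11 TPM and was highest in library 4, like Oas1a, Oasl2 and Bst2. The chemokine gene Cxcl10 had counts in libraries 1 and 4 only, at 1.78 and 1.14 TPM. Of its TPM, 62.4% belonged to retained-intron transcripts, and protein-coding transcripts were counted in library 4 only.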
